A study of Mus musculus with 2 samples.

Results

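Maf, Bcl6, Prdm1, Zbtb32, Nfil3, Irf4, Bhlhe40 and Bhlhe41 encode transcription factors that tune cytokine output and effector fate in helper T cells. These 8 genes were taken through every probe set whose only annotated gene symbol is one of them, which gave 17 of the 45037 probe sets on the array and 8 of 18193 named genes. The RNA came from IL-5+ and from IL-5- memory T helper 2 (Th2) cells, with 1 Affymetrix array for each fraction. Both fractions derive from splenic CD4 T cells of BALB/c mice with a transgenic antigen receptor, DO11.10, that is specific for a peptide of ovalbumin. The cells were stimulated with that peptide for 6 days in 25 U/ml IL-2 and 100 U/ml IL-4, transferred into BALB/c nu/nu recipients, which lack a thymus but keep their own B and myeloid cells, and recovered from the spleen after 30 days. The ages of the mice, the number of recipients, any pooling of RNA and the way IL-5 production was detected before the sort are not stated in the labels. With 1 array per fraction nothing below has a test, and the ratios hold for this pair of RNA samples only.

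Helper T cells set their cytokine genes through a small set of opposing factors. The repressor BCL6 favours the follicular helper fate and BLIMP-1, the product of Prdm1, favours terminal effector differentiation, and each is known to restrain the other's gene. c-MAF, encoded by Maf, activates Il4 and also promotes Il10 and Il21. IRF4 binds DNA with BATF and JUN proteins and is needed for Th2 differentiation. ZBTB32 is a zinc finger repressor, also named repressor of GATA because it binds GATA3, and NFIL3, BHLHE40 and BHLHE41 are repressors shared between cytokine control and the circadian clock.

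Of the 8 genes, Zbtb32 was more than 2-fold higher and Maf more than 2-fold lower in IL-5+ than in IL-5- cells, and the other 6 differed by less. Bcl6 and Bhlhe40 had higher and Prdm1, Irf4, Nfil3 and Bhlhe41 lower signals in IL-5+ cells. A gene's value is that of the probe set brightest on average over the arrays (mean log2 signal), and the log2 ratio is that of IL-5+ over IL-5- signals, with signals under 36.3 (the 40th percentile of all signals, called the floor) set to it. Over all 13133 genes above the floor on 1 or both arrays, 2.85% reached a 2-fold higher and 4.01% a 2-fold lower signal in IL-5+ cells, so that 1 member of 8 in each direction says little about the members as a group. The median log2 ratio was -0.26 over the members and -0.048 over all those genes, and the median size of the log2 ratio, whatever its sign, was 0.59 over the members and 0.25 over all genes. All genes here include those above the floor on 1 array only, whose ratios are bounds. The members were chosen with earlier results of these data known, so these medians are no evidence about the members as a group.

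The error of a ratio could be judged only from different probe sets of one gene. Between them the log2 ratio had an SD of 0.55 for mean signals from 36.3 to 112.8, 0.37 from 112.8 to 500, 0.21 from 500 to 2000 and 0.13 above 2000. It holds no variation between cell preparations. Of the 7 members above the floor on both arrays, 5 had a ratio more than 2 such SDs from 0. They were Zbtb32, Maf, Bhlhe40, Irf4 and Prdm1. Of the 10990 genes measured on both arrays, 17.9% had such a ratio. The share rose with the signal, from 6.11% for mean signals of 36.3 to 112.8 and 14.9% from 112.8 to 500. It was 22.1% from 500 to 2000, the range of Maf, and 26.6% above 2000, the range of Zbtb32, Bhlhe40 and Irf4. Prdm1 passed only just, at -2.00 SDs on its 1 probe set. With scaling by quantiles, loess or the array median, or an added constant, its log2 ratio was -0.68 to -0.66. This is less than 2 SDs from 0 at its SD of 0.37, so the count of 5 depends on these choices.

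**Figure D1:**
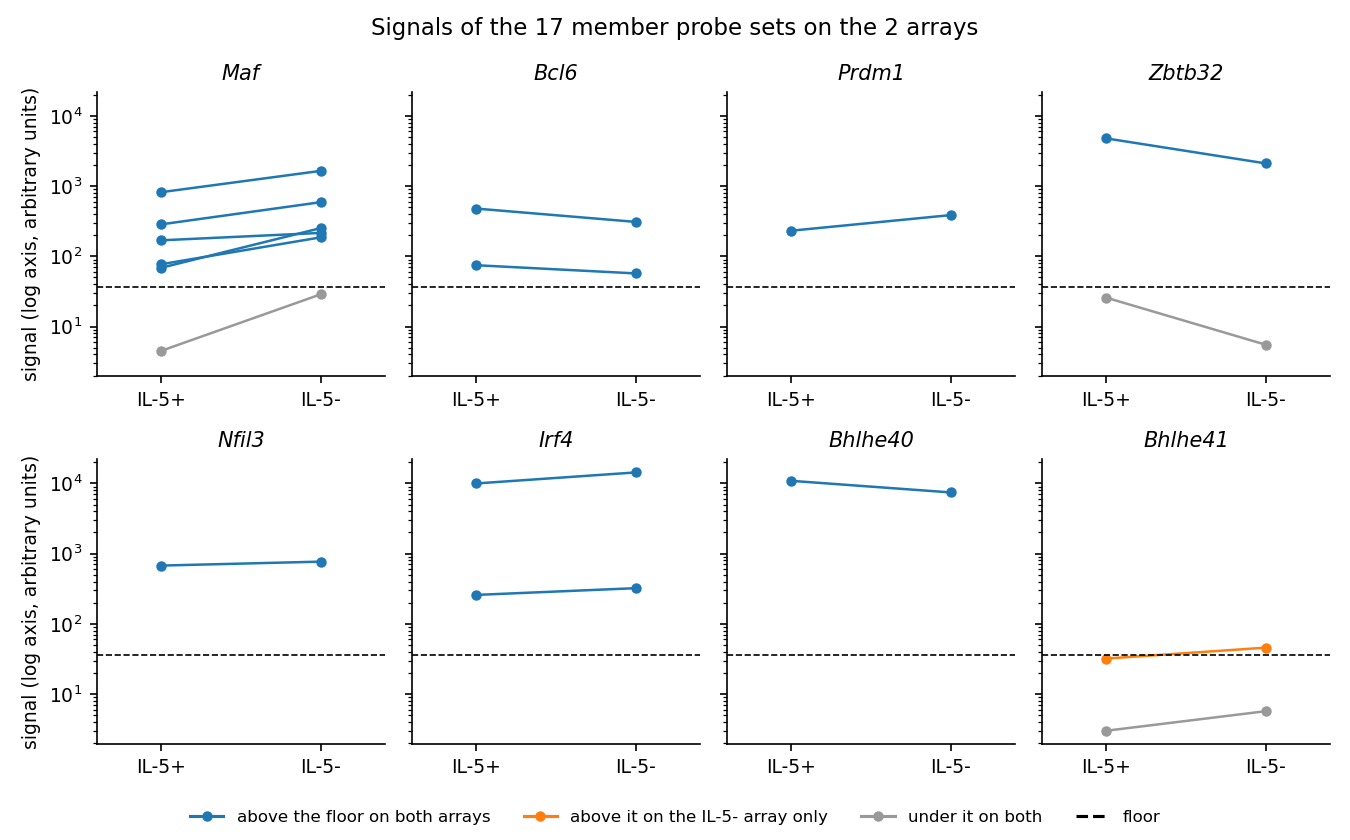
Signal (log axis, arbitrary units) of each of the 17 member probe sets on the IL-5+ and IL-5- arrays; a line joins the 2 signals of a probe set and the dashed line is the floor of 36.3. Zbtb32, Bcl6 and Bhlhe40 have higher, and the other 5 genes lower, signals on the IL-5+ than on the IL-5- array.

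**Figure D2:**
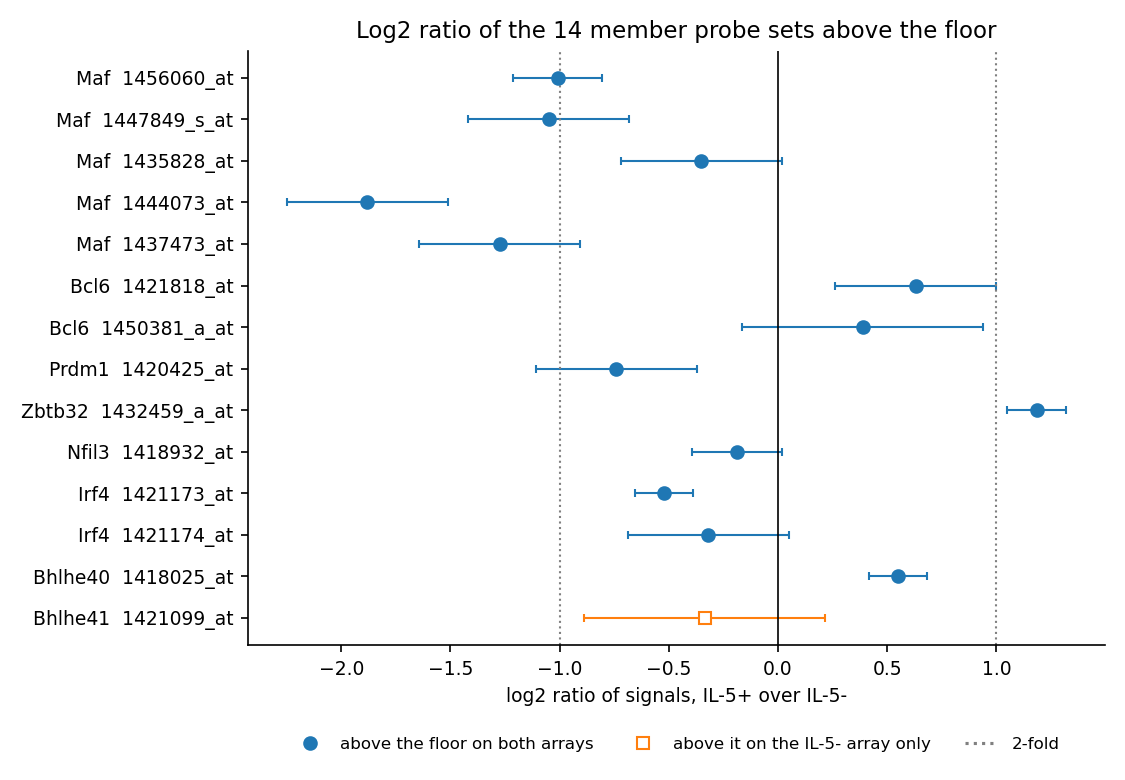
Log2 ratio (IL-5+ signal divided by IL-5- signal) for the 14 member probe sets above the floor on 1 or both arrays; bars are the SD between probe sets of one gene at that mean signal, and dotted lines mark a 2-fold difference. Zbtb32 lies beyond 2-fold to the right, and 4 of 5 Maf probe sets lie beyond 2-fold to the left.

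Zbtb32 had the largest ratio of the members. Its bright probe set, 1432459_a_at, had a signal of 4785 in IL-5+ and 2106 in IL-5- cells, a 2.27-fold difference (log2 ratio 1.18, probe-set SD 0.13). Among the 2411 genes with a mean signal above 2000, 99.0% had a lower ratio than Zbtb32. At the other Zbtb32 probe set, 1447330_at, the signals were 25.8 in IL-5+ and 5.50 in IL-5- cells, both under the floor, so that it gave no ratio. The difference of Zbtb32 therefore rests on 1 probe set, whose suffix marks probes that match several transcripts of the gene.

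RefSeq lists a pair of start sites for Zbtb32 (GRCm38.p6, minus strand), and the 250 bases before each are shown because this is the one member at least 2-fold higher. The capitals mark CCAAT or its reverse complement, searched on both strands after the sequence had been seen.
Zbtb32 chr7:30598910-30599159: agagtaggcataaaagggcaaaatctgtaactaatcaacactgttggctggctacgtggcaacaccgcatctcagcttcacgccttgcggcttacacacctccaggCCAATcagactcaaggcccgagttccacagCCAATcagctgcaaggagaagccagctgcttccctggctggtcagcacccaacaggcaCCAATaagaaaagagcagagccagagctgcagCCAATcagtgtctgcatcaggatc
Zbtb32 chr7:30592943-30593192: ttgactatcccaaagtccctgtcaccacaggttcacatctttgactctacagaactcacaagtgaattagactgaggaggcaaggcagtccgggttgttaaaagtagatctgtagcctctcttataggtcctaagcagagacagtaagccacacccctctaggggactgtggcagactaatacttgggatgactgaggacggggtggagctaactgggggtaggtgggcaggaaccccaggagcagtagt
The first window holds 4 CCAAT boxes and the second holds 0. Of 32851 windows of the same length before RefSeq start sites, 33.8% hold the letters at least once and 0.84% at least 4 times. The array does not tell which start site was used.

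Bcl6 differed in the same direction as Zbtb32, by less than 2-fold. At 1421818_at its signal was 479 in IL-5+ and 309 in IL-5- cells (1.55-fold, log2 ratio 0.63, probe-set SD 0.37). The dimmer probe set, 1450381_a_at, had signals of 74.7 in IL-5+ and 57.1 in IL-5- cells (log2 ratio 0.39, SD 0.55). Both Bcl6 probe sets thus had higher signals in IL-5+ cells, each by less than 2 SDs. Of the 2935 genes with mean signals from 112.8 to 500, 93.0% had a lower ratio.

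The windows before the Bcl6 start sites (GRCm38.p6, minus strand) are shown because they hold matches to short motifs searched for members of the set. The motifs searched on both strands were CACGTG, the E-box of BHLHE40 and BHLHE41, TTCCTNGAA for BCL6, GNGAAAG for BLIMP-1 and TTANNTAA, the D-box of NFIL3, and the capitals mark each match.
Bcl6 chr16:23988853-23989102: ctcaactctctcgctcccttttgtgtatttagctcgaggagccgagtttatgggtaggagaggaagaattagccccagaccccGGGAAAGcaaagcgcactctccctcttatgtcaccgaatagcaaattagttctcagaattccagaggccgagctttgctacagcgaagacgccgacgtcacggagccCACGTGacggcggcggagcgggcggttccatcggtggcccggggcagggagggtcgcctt
Bcl6 chr16:23981284-23981533: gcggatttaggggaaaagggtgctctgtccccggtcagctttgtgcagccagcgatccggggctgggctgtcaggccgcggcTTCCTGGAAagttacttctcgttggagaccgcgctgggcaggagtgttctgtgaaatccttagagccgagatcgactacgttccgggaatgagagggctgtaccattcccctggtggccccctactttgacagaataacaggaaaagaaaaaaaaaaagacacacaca
The first window holds 1 E-box, 60 bases before the start, and 1 match to the BLIMP-1 letters, and the second holds 1 match to the BCL6 letters. These letters occur in 6.02%, 19.4% and 1.31% of all 32851 windows, in that order, and the D-box, found in neither, in 5.43%. Among 8 windows of 6 members, the E-box also stood before Bhlhe41 and the BLIMP-1 letters before Irf4. A pair of GAAA separated by 2 bases, an element bound by interferon regulatory factors, stood in 0 of the 8 windows (2.98% of all windows), and TGCTGA, part of the site of c-MAF, in 1, the first Zbtb32 window (16.1%). No matches to different motifs overlapped. Since N stands for any base, a match to the BCL6 or BLIMP-1 letters need not be a known binding site. A match describes the sequence and is no evidence of binding in these cells.

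Prdm1, whose product opposes BCL6, was lower in IL-5+ cells. Its 1 probe set had a signal of 232 in IL-5+ and 387 in IL-5- cells, 1.67-fold lower (log2 ratio -0.74, SD 0.37). Of the genes in the same signal range, 9.57% had a lower ratio. Bcl6 and Prdm1 therefore differed in opposite directions, and the difference between their log2 ratios was 1.37 with a combined probe-set SD of 0.52, a value that no common scaling of an array can alter.

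B cells and plasma cells also transcribe Bcl6, Irf4 and Prdm1, and the recipients keep B cells. Of 9 B cell markers with a probe set, 3 did not reach the floor on either array. Of the 6 that did, 4 had ratios below 0 and 2 above (median -0.22). The summed signals of the 9 were 269 in IL-5+ and 1107 in IL-5- cells. Ighm gave most of the IL-5- sum (64.4 in IL-5+ and 813 in IL-5- cells), and its 5 probe sets ranged from -3.66 to 0.16. Ms4a1, encoding CD20, stood at 60.7 in IL-5+ and 62.1 in IL-5- cells. Among 7 plasma cell markers the sums were 16019 in IL-5+ and 13762 in IL-5- cells, nearly all from Xbp1 (15416 in IL-5+ and 12996 in IL-5- cells), which T cells also express, and Pou2af1 had signals of 159 in IL-5+ and 385 in IL-5- cells. Of the 6 plasma cell markers above the floor, 4 had ratios above 0 and 2 below (median 0.18). The part of B cells and plasma cells in the Bcl6, Prdm1 and Irf4 signals was not tested.

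Maf was the only member more than 2-fold lower in IL-5+ cells, and just so. Its brightest probe set, 1456060_at, had a signal of 819 in IL-5+ and 1649 in IL-5- cells (2.01-fold lower, log2 ratio -1.01, SD 0.21). Of the 3402 genes with mean signals from 500 to 2000, 2.23% had a lower ratio. Scaling by quantiles, loess or the array median, or adding a constant to the signals, left Maf just under 2-fold, at -0.93 to -0.99.

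The other Maf probe sets went the same way by unequal amounts. At 1447849_s_at the signals were 285 in IL-5+ and 591 in IL-5- cells (log2 ratio -1.05), and at 1435828_at 169 in IL-5+ and 216 in IL-5- cells (-0.35). At 1437473_at they were 77.1 in IL-5+ and 186 in IL-5- cells (-1.27), and at 1444073_at 68.6 in IL-5+ and 253 in IL-5- cells (-1.88). All 5 probe sets above the floor had lower signals in IL-5+ cells, 4 of them by 2-fold or more, while the lowest and highest log2 ratio lay 1.53 apart. At 1447945_at the signals of 4.50 in IL-5+ and 28.8 in IL-5- cells were both under the floor. Over all members 4 of 14 probe sets above the floor were lower by 2-fold or more, all 4 of them Maf, and 1 was higher by as much, against 3.89% and 2.95% of all named probe sets. The Maf probe sets share 1 gene and 1 pair of RNA samples and count as 1 observation. In sorted but mixed cells, fewer cells expressing a gene and less RNA per cell cannot be told apart.

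Macrophages express Maf as well. Of 7 monocyte and macrophage markers, 2 were under the floor on both arrays, and the summed signals were 313 in IL-5+ and 377 in IL-5- cells. Of the 5 above the floor, 4 had ratios below 0 and 1 above (median -0.21). The brightest were Csf1r (106 in IL-5+ and 125 in IL-5- cells) and Cd68 (109 in IL-5+ and 75.8 in IL-5- cells). Their part in the Maf difference was not tested.

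Irf4 was bright and somewhat lower in IL-5+ cells. At 1421173_at its signal was 9980 in IL-5+ and 14340 in IL-5- cells (1.44-fold lower, log2 ratio -0.52, SD 0.13). The dimmer 1421174_at gave 258 in IL-5+ and 322 in IL-5- cells (log2 ratio -0.32, SD 0.37). The direction was shared by both probe sets, and 3.77% of genes with a mean signal above 2000 had a lower ratio.

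Bhlhe40 was also bright and differed from Irf4 in direction. BHLHE40, also named DEC1, is known to sustain cytokine output of helper T cells and to restrain Il10. Its signal was 10883 in IL-5+ and 7436 in IL-5- cells (1.46-fold higher, log2 ratio 0.55, SD 0.13), above the ratio of 94.8% of genes with a mean signal above 2000. Its paralogue Bhlhe41, known as DEC2 and described in mouse Th2 differentiation, was near or under the floor. Its signals were 32 in IL-5+ and 45.8 in IL-5- cells at 1421099_at, a bound of 1.26-fold or more lower in IL-5+ cells, and 3.0 in IL-5+ and 5.70 in IL-5- cells at 1457096_at. A Bhlhe41 difference was therefore not detectable at this signal.

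Nfil3 differed least among the members measured on both arrays. NFIL3, also named E4BP4, is known to modulate Il10 and Il13 in helper T cells. Its signal was 675 in IL-5+ and 769 in IL-5- cells (log2 ratio -0.19), within 1 probe-set SD of 0 (0.21). Of the genes with mean signals from 500 to 2000, 32.5% had a lower ratio.

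**Figure D3:**
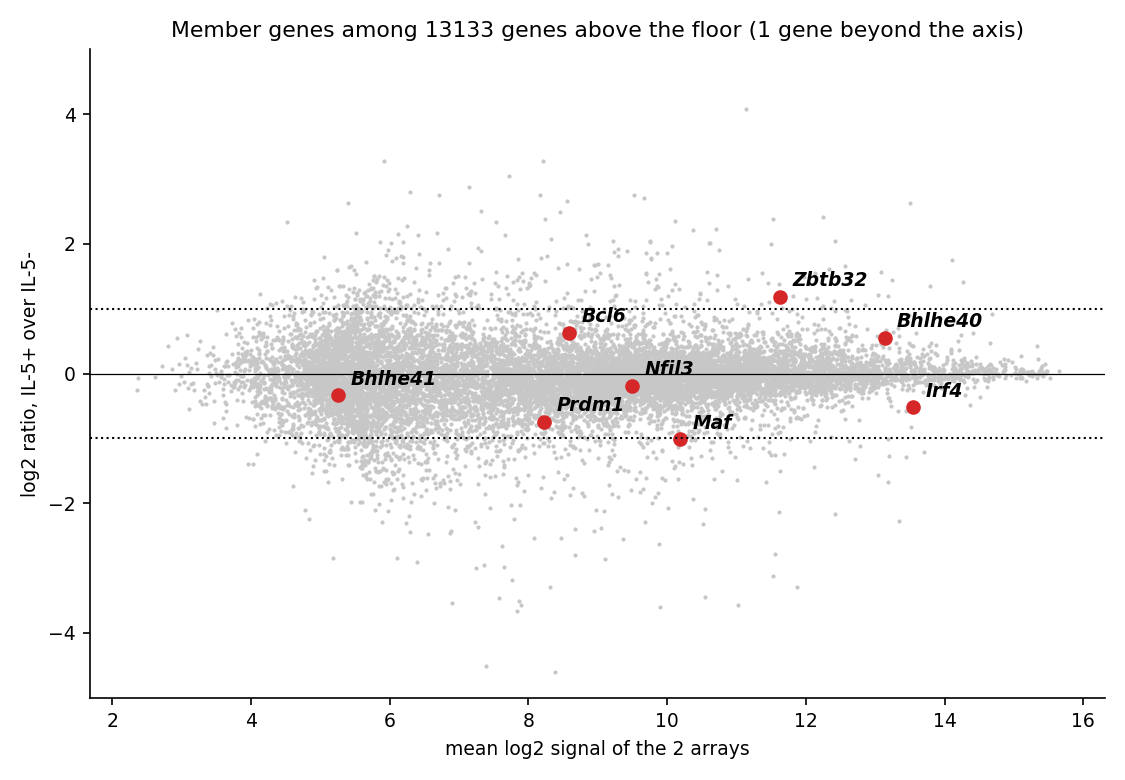
Log2 ratio, IL-5+ over IL-5-, against the mean log2 signal of the 2 arrays for 13133 genes above the floor on 1 or both arrays (grey), with the 8 members in red and dotted lines at 2-fold; Il5 lies beyond the axis. Zbtb32, Bhlhe40 and Irf4 sit on the bright side, where ratios scatter least, and Bhlhe41 on the dim side.

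The genes these factors are known to control were read from lists. Of 16 measured cytokine genes of helper T cells, 9 were at least 2-fold higher and 2 lower in IL-5+ cells (median log2 ratio 1.21). Of all genes above the floor on 1 or both arrays, 2.85% were at least 2-fold higher and 4.01% lower. The 9 and the median include Il5, on which the cells were sorted, so that its direction was fixed in advance. Il5 had signals of 37085 in IL-5+ and 67.4 in IL-5- cells. Il9 had 9277 in IL-5+ and 547 in IL-5- cells, Il31 had 922 in IL-5+ and 95.4 in IL-5- cells, and Il13 had 28724 in IL-5+ and 4639 in IL-5- cells. Il4, a known target of c-MAF, had 32261 in IL-5+ and 9637 in IL-5- cells (log2 ratio 1.74). Il21 had 369 in IL-5+ and 896 in IL-5- cells at its brighter probe set (-1.28), and its other probe set gave 0.44. With 1 ratio per gene, any link between these differences and that of Maf was not tested. Il10, which c-MAF and BLIMP-1 promote, had signals of 271 in IL-5+ and 229 in IL-5- cells (0.24). Il4 and Il10 are named after their values were seen.

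Genes of follicular helper cells, the fate that BCL6 favours, differed in both directions. Of 12 measured genes 4 had ratios above 0 and 8 below, none was higher by 2-fold and 5 were lower by 2-fold or more in IL-5+ cells (median -0.21). The shares over all genes above the floor were 2.85% higher and 4.01% lower. Slamf6 (208 in IL-5+ and 643 in IL-5- cells, log2 ratio -1.63), a receptor of helper T cells, had 3 probe sets from -3.08 to -0.71. Pou2af1 (-1.28), a coactivator shared with B cells, Il21 and the adaptor gene Sh2d1a (391 in IL-5+ and 929 in IL-5- cells, -1.25) were the next. Cxcr5, the receptor that leads to B cell follicles, exceeded the floor in IL-5- cells only (24.1 in IL-5+ and 85.1 in IL-5- cells). The highest ratio was that of Cd200 (1325 in IL-5+ and 883 in IL-5- cells, log2 ratio 0.59, SD 0.21), named after its value was seen.

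Genes described as repressed by BLIMP-1, a list that includes Bcl6 itself, differed in both directions. Of 12 measured genes 1 was more than 2-fold higher in IL-5+ cells, the immediate early gene Fos (1224 in IL-5+ and 323 in IL-5- cells, log2 ratio 1.92), and 3 were lower (median -0.31). The lower ones were Ccr7, a lymph node homing receptor (4725 in IL-5+ and 22853 in IL-5- cells, -2.27), Tbx21, the Th1 factor (1053 in IL-5+ and 2971 in IL-5- cells, 2.82-fold lower), and Cxcr5. Of all genes above the floor, 2.85% were at least 2-fold higher and 4.01% lower. The list draws partly on B cell and CD8 T cell work.

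Relatives of the members by protein family, and partners of BCL6, were read against the 6.85% of all genes above the floor that were 2-fold apart in either direction. None of 7 measured Maf family genes, 19 other ZBTB genes, 8 other PR domain genes or 9 BCL6 corepressors and partners was 2-fold apart in either direction, with medians of 0.25, -0.017, -0.12 and -0.074. This holds for the brightest probe set of each gene. Dimmer probe sets reached -1.33 for Bach1, -1.19 for Zbtb20 and -1 for Hdac7, which are named after their values were seen. Mafg, a small MAF partner, stood at 0.52 (2036 in IL-5+ and 1423 in IL-5- cells). Bach2, a repressor that pairs with small MAF proteins, stood at 0.19 (4313 in IL-5+ and 3771 in IL-5- cells), with 3 probe sets from 0.19 to 0.82. The corepressor genes Bcor and Hdac3 stood at 0.21 and -0.22. Zbtb1 and Zbtb11 stood at 0.11 and 0.13. Prdm2 stood at 0.50, with 3 probe sets from -0.68 to 0.50, and Prdm4 at 0.20. The Maf family and PR domain counts depend on the floor. Nrl (52.4 in IL-5+ and 13.2 in IL-5- cells), Prdm9 (18.9 in IL-5+ and 48.9 in IL-5- cells) and Mecom (7.2 in IL-5+ and 40.8 in IL-5- cells), named after their values were seen, were above the floor in 1 fraction only. Without a floor, or with one at percentile 20, 1 Maf family gene was 2-fold higher and 2 PR domain genes were lower in IL-5+ cells.

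The list of other interferon regulatory factors, which also holds the genes of the IRF2-binding proteins Irf2bp1 and Irf2bp2, had mostly lower signals in IL-5+ cells. Of 9 measured genes, 8 had ratios below 0 and 3 were more than 2-fold lower in IL-5+ cells (median -0.60, and -0.23 without suffixed probe sets). The share at least 2-fold lower over all genes above the floor was 4.01%. Irf3 (-0.11), Irf2bp1 (-0.23) and Irf2bp2 (-0.11), named after their values were seen, lay within 1 probe-set SD of 0. Irf1, induced by interferons, had signals of 2130 in IL-5+ and 5050 in IL-5- cells (log2 ratio -1.25, SD 0.13), and its partner Irf2 had 414 in IL-5+ and 880 in IL-5- cells (-1.09). Irf8 had 1958 in IL-5+ and 4079 in IL-5- cells (-1.06). Irf8 also marks dendritic cells, and the 9 dendritic cell and MHC class II markers had summed signals of 2605 in IL-5+ and 4966 in IL-5- cells, mostly from Irf8. Of the 8 above the floor, 6 had ratios below 0 and 2 above (median -0.65), and Flt3 was under it on both arrays. H2-Ab1 stood at 157 in IL-5+ and 250 in IL-5- cells, H2-Aa at 51.0 in IL-5+ and 156 in IL-5- cells (log2 ratios of -1.61 and -1.32 at its 2 probe sets), and Zbtb46 at 149.7 in IL-5+ and 79.1 in IL-5- cells (0.92, with 3 probe sets from -0.33 to 0.92). H2-Aa, Zbtb46 and Flt3 are named after their values were seen. The part of such cells was not tested.

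The proteins that bind beside IRF4 showed no common direction. Of 11 measured genes, 5 had ratios above 0, 5 below and 1 equal to 0 (median 0). Jund stood at 10147 in IL-5+ and 10961 in IL-5- cells (log2 ratio -0.11) and Ikzf1, encoding Ikaros, at 5700 in IL-5+ and 5815 in IL-5- cells (-0.029), although its other probe set gave 1.75. The 1 gene 2-fold apart was Ikzf3, encoding Aiolos (502 in IL-5+ and 2120 in IL-5- cells, -2.08), named after its value was seen. Over all genes above the floor, 6.85% were 2-fold apart in either direction.

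Clock genes, among which BHLHE40, BHLHE41 and NFIL3 act as repressors, mostly had lower signals in IL-5+ cells. Of 16 measured, 13 had ratios below 0, 2 were at least 2-fold lower and 1 was higher (median -0.32). Several of the 13 lay within 1 probe-set SD of 0. Over all genes above the floor on 1 or both arrays the median was -0.048, and 4.01% were at least 2-fold lower. Arntl, encoding the clock activator BMAL1, had signals of 535 in IL-5+ and 266 in IL-5- cells (log2 ratio 1.01), but its other probe set gave 0.47. Npas2 (34.8 in IL-5+ and 125.7 in IL-5- cells) and Nr1d1 (24.8 in IL-5+ and 111.9 in IL-5- cells) exceeded the floor in IL-5- cells only, so that their differences are bounds of at least 3.46-fold and 3.08-fold, and neither was 2-fold apart with a floor of 112.8.

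Among E proteins, Id proteins and Hes factors, which share the helix-loop-helix fold of BHLHE40, 1 of 9 measured was 2-fold or more higher and 1 lower (median -0.37). The shares over all genes above the floor were 2.85% and 4.01%. Id2, an inhibitor of E proteins linked to effector cells, had signals of 12739 in IL-5+ and 5519 in IL-5- cells (log2 ratio 1.21), with 3 probe sets from 0.45 to 1.31. Id1 had signals of 59.3 in IL-5+ and 254 in IL-5- cells (-2.10). Without probe sets whose suffix marks matches to several transcripts, neither was counted as 2-fold apart.

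Regulators of effector and memory fate outside the set split in direction. Of 18 measured, 2 were at least 2-fold higher and 4 lower in IL-5+ cells (median -0.31), against 2.85% and 4.01% of all genes above the floor. Klf2, a factor of quiescent T cells, had signals of 275 in IL-5+ and 3323 in IL-5- cells (log2 ratio -3.60), and Lef1 had 804 in IL-5+ and 2147 in IL-5- cells (-1.42). Zeb2, linked to terminal effector cells, had 2629 in IL-5+ and 893 in IL-5- cells (1.56), and its 5 probe sets lay between 1.40 and 1.82. Gata3, the partner of ZBTB32, had 5968 in IL-5+ and 3570 in IL-5- cells (0.74), and is named after its value was seen.

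**Figure D4:**
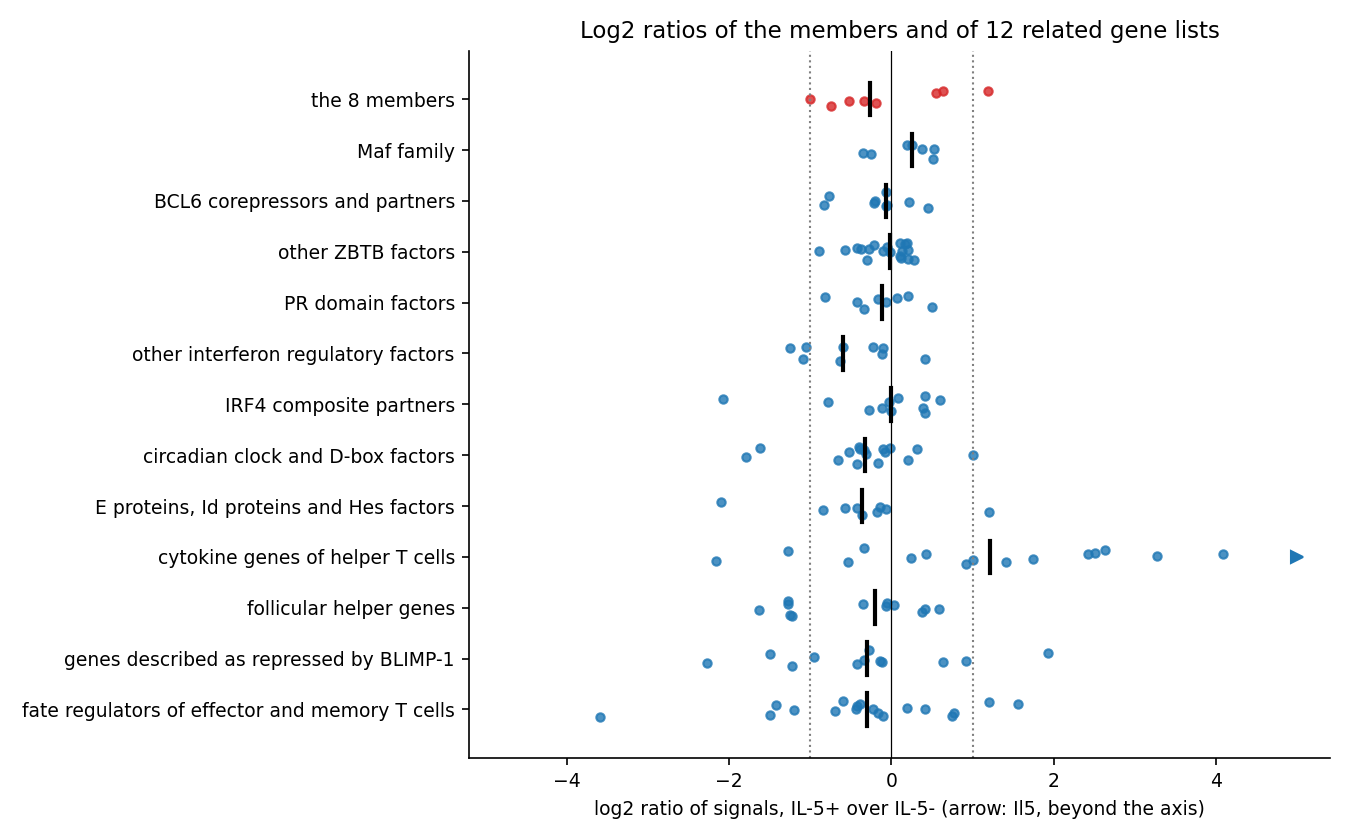
Log2 ratio, IL-5+ over IL-5-, of the 8 members (red) and of the measured genes of 12 related lists (blue), with a black bar at each median and dotted lines at 2-fold; points are spread vertically only for sight, and the arrow stands for Il5. The cytokine list, which includes Il5, has a median of 1.21 and the list of interferon regulatory factors one of -0.60, which is -0.23 without suffixed probe sets.

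The fractions carried T cell markers. All 8 measured CD4 T cell markers were above the floor and within 2-fold, led by Cd3d (9116 in IL-5+ and 13553 in IL-5- cells) and Cd28 (9051 in IL-5+ and 10151 in IL-5- cells), with sums of 51160 in IL-5+ and 62910 in IL-5- cells. They were not even between the fractions, as 7 had ratios below 0 and 1 above (median -0.25). Cd3d had a log2 ratio of -0.57 (probe-set SD 0.13). Cd4 itself was the dimmest of the 8 (454.5 in IL-5+ and 471 in IL-5- cells), and is named after its value was seen. The CD8 genes were dimmer than Cd4, at 66.9 in IL-5+ and 76.7 in IL-5- cells for Cd8a and 280 in IL-5+ and 168 in IL-5- cells for Cd8b1. Of 9 mast cell, basophil and eosinophil markers 7 were under the floor on both arrays, and the brightest were Kit (123 in IL-5+ and 106 in IL-5- cells) and Cpa3 (21.0 in IL-5+ and 50.5 in IL-5- cells). The sums were 1375 in IL-5+ and 1478 in IL-5- cells over 5 NK cell markers, led by Nkg7 (750 in IL-5+ and 1133 in IL-5- cells) and Klrk1 (519 in IL-5+ and 297 in IL-5- cells), and 112 in IL-5+ and 168 in IL-5- cells over 5 neutrophil markers, led by Elane (62.2 in IL-5+ and 48.1 in IL-5- cells) and Ngp (33.7 in IL-5+ and 45.5 in IL-5- cells). The IL-5+ array had a trimmed mean signal of 496 and a median of 57.2, and the IL-5- array 497 and 60.4.

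**Figure D5:**
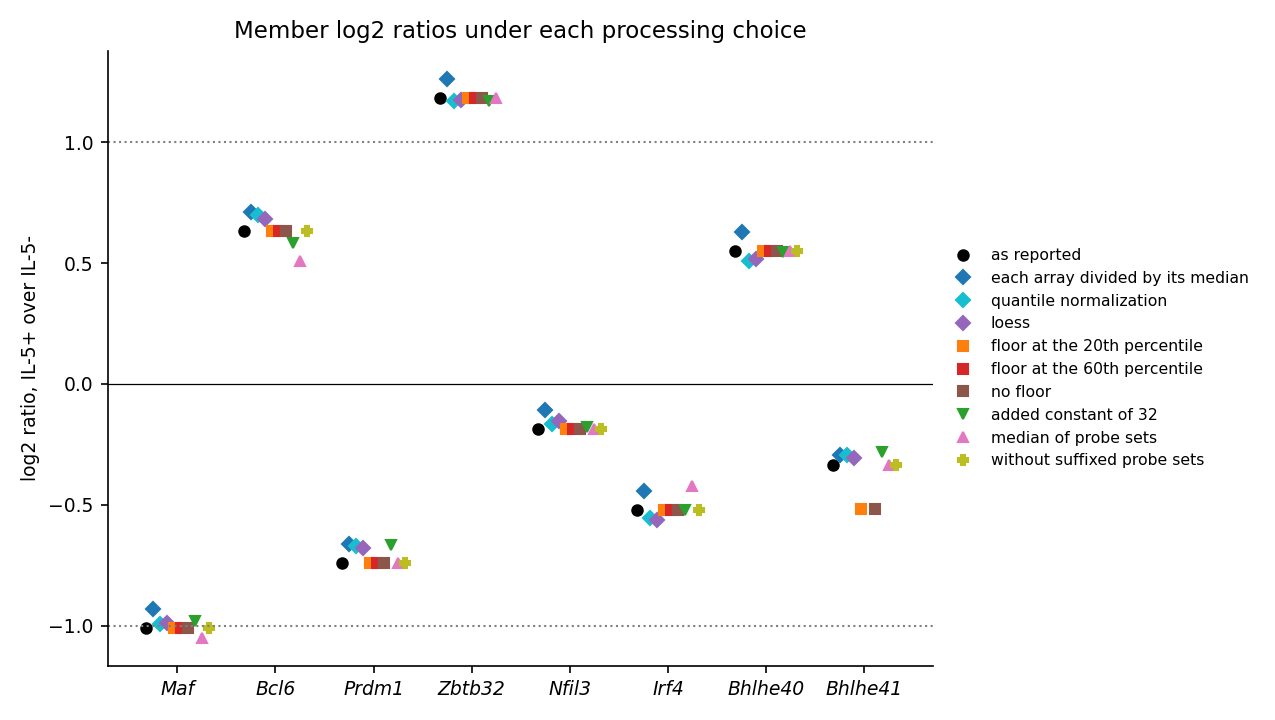
Log2 ratio of each member, IL-5+ over IL-5-, as reported (black) and under 9 other processing choices (colours), with dotted lines at 2-fold. No member changes sign; Maf crosses the 2-fold line, Zbtb32 stays above it wherever it is measured, and the choice without suffixed probe sets leaves Zbtb32 without a point.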

How the data were processed

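The deposited values are linear signal intensities, 1 for each probe set on each array, which the authors produced in GCOS (Affymetrix software) according to the submitters' processing notes. The GCOS version, its algorithm and any scaling target are unknown here. The nearly equal trimmed means (2% left out at each end) are what scaling to a common target would give, so ratios are relative to the rest of the array. The table holds no detection calls, and signals near background or saturation are compressed.

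The platform annotation pairs 34945 of the 45037 probe sets with 1 gene symbol and 932 with several, and 9160 are unnamed here. Promoter sequences are RefSeq's (GRCm38.p6), which matched 6 of 8 members. A floor at the 40th percentile of all signals (36.3) was set before taking log2, and a gene above it on 1 array only has a bound. A difference of 2-fold or more was counted, with no test. The number of arrays limits the precision.

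The members and the 12 related and 9 marker lists were chosen with earlier results of these data known. The named genes are the members, up to 4 genes per related list with the largest ratio among those 2-fold apart (or the 2 brightest where fewer than 2 were), and the 2 brightest markers per cell type, plus those said to be named after their values were seen. Counting was tested on simulated data. Alternatives were 3 other scalings, 3 other floors, an added constant, other probe set choices and other thresholds. Values were computed with pandas 2.3.3, numpy 2.4.6 and statsmodels 0.14.6 under Python 3.11.15 and drawn with matplotlib 3.10.9.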

Additional observations from a re-analysis of the deposited data

How the results depend on the processing

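No member changed sign under the 9 alternatives of scaling, floor, added constant and probe set choice in which it was measured. All 70 member ratios moved by less than 1 probe-set SD, but many of them could not move. Another floor leaves the ratio of a gene above it on both arrays unchanged. Division by the array median shifts all such ratios by 1 common amount. The count of 70 therefore says little about how stable the ratios are. Zbtb32 stayed at least 2-fold higher in the 8 of these alternatives that measured it (log2 ratio 1.17 to 1.26). Without suffixed probe sets it had no ratio, and the number of members, and of member probe sets, at least 2-fold higher was 0. Maf ranged from -1.05 to -0.93. With each array divided by its median, with quantile normalization, with loess and with an added constant of 32, the number of members at least 2-fold lower was 0 and that of member probe sets 2, since values just beyond 2-fold came just under it. Without a floor, or with one at percentile 20, 2 member probe sets were at least 2-fold higher, as the dim Zbtb32 probe set entered.

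A threshold of 1.5-fold gave 2 members higher and 2 lower, and 2 probe sets higher. One of 3-fold gave 0 members either way, 0 probe sets higher and 1 lower. Over all genes, the counts of higher and lower genes were 374 and 526 as reported, 2058 and 2314 without a floor, 1325 and 1572 for a floor at percentile 20, and 183 and 226 for one at percentile 60. They were 1036 and 1563 at 1.5-fold and 91 and 143 at 3-fold. Of 264 list counts 229 were unchanged or stayed within 1.5 times, among them counts of 0 that stayed 0. Of 108 list medians 97 moved by less than 0.13. As with the member ratios, many of these values could hardly move, so these numbers say little about how stable the lists are. No paired analysis was possible because each group has 1 array. Genes above the floor on 1 array only, such as Bhlhe41, Npas2 and Nr1d1, have bounds.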
